A study of Homo sapiens with 3 samples.

Results

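The EGF receptor family was followed in RNA of DU145, an androgen-independent human prostate cancer cell line, through 10 genes: the ligands TGFA, AREG, EREG, HBEGF, BTC and NRG1, the receptors EGFR, ERBB2 and ERBB3, and the inhibitor ERRFI1. The genes were chosen from these same libraries, because TGFA lay on opposite sides of the control with the siRNAs, and were matched by gene symbol. All 10 were among the 22773 genes listed for every library, and 9 of them were among the 14185 genes whose mean level reached 1 CPM (read counts scaled to a common library total). NRG1 was the member below that level. Because the members were chosen from the ratios described here, those ratios are given as descriptions and no member has a p-value.

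The groups were TSPAN18 siRNA 2, TSPAN18 siRNA 1 and a negative control siRNA, each with 1 library. TSPAN18 is a tetraspanin membrane protein. All cells, the control included, received 75 nM siRNA with a lipid reagent, and the study's design text gives 48 h between transfection and RNA extraction. The libraries held 29766559 read pairs for siRNA 2, 29913825 for siRNA 1 and 30058731 for the control. With no condition replicated, 95% exact intervals cover counting error only, and PCR copies are not independent molecules.

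The target was low with both reagents, with TSPAN18 at 1.51 CPM with siRNA 2, 1.37 CPM with siRNA 1 and 16.9 CPM in the control. Epithelial markers were present, as 5 of 5 (KRT8, KRT18, KRT19, EPCAM and CDH1) passed 1 CPM and summed to 754.4, 770.4 and 900.2 CPM with siRNA 2, with siRNA 1 and in the control. Of 12 fibroblast, endothelial and haematopoietic markers, COL1A1 alone passed 1 CPM.

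EGF-family ligands are made as membrane-anchored precursors that proteases cut to release the active factor. Released ligand pairs receptors of the ERBB family, whose kinases then start the RAS-ERK and PI3K-AKT cascades. TGFA and AREG bind EGFR, while EREG, HBEGF and BTC bind EGFR and ERBB4, and NRG1 binds ERBB3 and ERBB4. ERBB2 has no known ligand of its own and serves as a partner, and ERBB3 has little kinase activity and signals through its partners. ERRFI1, also called MIG6, binds the EGFR kinase and shuts it down as a feedback inhibitor. Autocrine signalling through EGFR is known in androgen-independent prostate cancer lines.

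TGFA (ENSG00000163235) showed the widest spread of the family. It stood at 45.2 CPM with siRNA 2 (1345 read pairs), at 192.9 CPM with siRNA 1 (5771 read pairs) and at 94.3 CPM in the control (2834 read pairs). The siRNA 1 library was thus high and the siRNA 2 library low, with the control between them and no overlap of the counting intervals. The siRNA 2 library held 47.9% of the control level (interval 44.9 to 51.2) and the siRNA 1 library 204.6% (195.6 to 214.1). On the log2 (CPM + 1) scale, which is used for every ratio below and understates the change of low genes, these are −1.04 and 1.03. Between the reagents, siRNA 2 held 23.4% (22.1 to 24.9) of the siRNA 1 level, a log2 ratio of −2.07. Only 1 of the 14185 genes lay lower in that comparison. TGFA was the only gene at least 2-fold higher with siRNA 1 and at least 2-fold lower with siRNA 2, which is 0.00705% of the genes tested. It was chosen for this, so the count describes the choice. It stood close to the 2-fold line on both sides.

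EREG (ENSG00000124882), the epiregulin gene, went the same way on a smaller scale. Its level was 70.3 CPM with siRNA 2, 191.1 CPM with siRNA 1 and 102.8 CPM in the control. As for TGFA, siRNA 1 was highest and siRNA 2 lowest, and the intervals of the 3 libraries did not overlap. These levels are 68.4% (64.7 to 72.3) of the control with siRNA 2 and 185.9% (177.9 to 194.3) with siRNA 1, log2 ratios of −0.54 and 0.89. The siRNA 2 level was 36.8% (34.98 to 38.7) of the siRNA 1 level, with 20 genes lower in that comparison. Whole-cell RNA does not separate fewer cells of a kind from less RNA per cell.

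**Figure D1:**
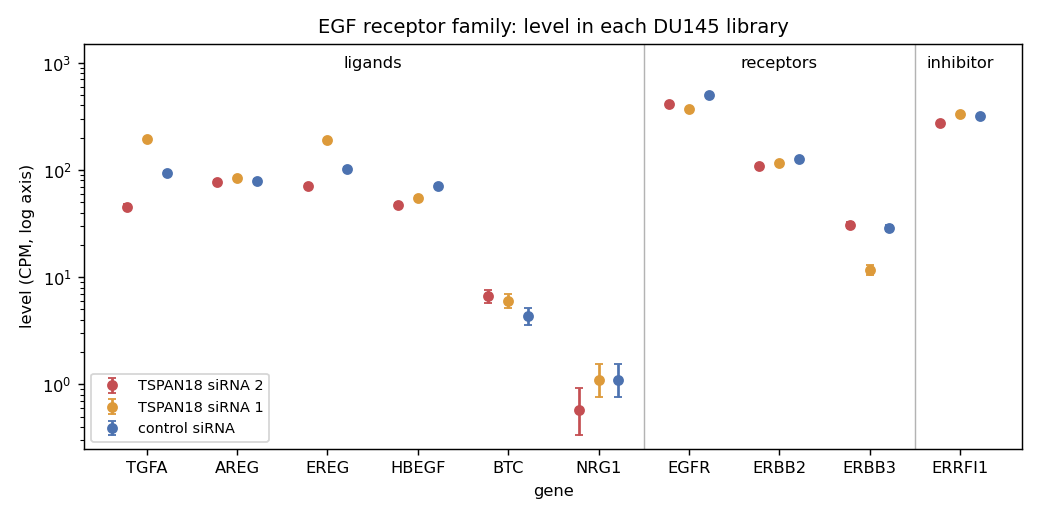
Level of each gene in CPM on a log axis, with TSPAN18 siRNA 2, TSPAN18 siRNA 1 and control siRNA from left to right within a gene; bars are 95% exact Poisson intervals for counting error. TGFA and EREG are highest with siRNA 1 and lowest with siRNA 2, at 192.9 and 45.2 CPM for TGFA, while ERBB3 is low with siRNA 1 alone, at 11.7 CPM.

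The remaining ligands did not share this pattern. AREG, the amphiregulin gene and neighbour of EREG on chromosome 4, was level across the libraries at 77.7 CPM with siRNA 2, 83.4 CPM with siRNA 1 and 78.5 CPM in the control. Its siRNA 2 level was 99.1% (93.5 to 104.9) and its siRNA 1 level 106.3% (100.5 to 112.5) of the control. HBEGF, the heparin-binding ligand that also serves as the diphtheria toxin receptor, was below the control with both reagents, at 47.2 CPM with siRNA 2, 54.99 CPM with siRNA 1 and 71.3 CPM in the control. These levels are 66.2% (61.8 to 70.8) and 77.2% (72.3 to 82.3) of the control.

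BTC, the betacellulin gene, was above the control with both reagents, at 6.65 CPM with siRNA 2, 6.05 CPM with siRNA 1 and 4.32 CPM in the control, from 198, 181 and 130 read pairs. The intervals of its siRNA libraries overlapped each other, and the siRNA 2 level was 109.9% (89.4 to 135.2) of the siRNA 1 level. NRG1 was near the lower end of what these libraries can measure, at 0.571 CPM with siRNA 2, 1.10 CPM with siRNA 1 and 1.10 CPM in the control, from 17, 33 and 33 read pairs. Its siRNA 2 level was 52.0% of the control, with an interval from 27.2 to 96.1.

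In the part of chromosome 4 that holds EREG, the protein-coding genes are ordered EPGN, EREG, AREG and BTC, per the RefSeq annotation of GRCh38.p14. Levels differed between these neighbours. EPGN, the epigen gene, was at 0.370 CPM with siRNA 2, 0.267 CPM with siRNA 1 and 0.665 CPM in the control. These levels are below 1 CPM and rest on 11, 8 and 20 read pairs, so its pattern is uncertain. By the measured levels, EREG was the 1 gene of the 4 that was high with siRNA 1 and low with siRNA 2.

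Of the other ligands, EGF itself stood out with siRNA 2, at 8.47 CPM, against 2.81 CPM with siRNA 1 and 3.29 CPM in the control. The siRNA 2 library was high and the other libraries were alike, a direction opposite to TGFA. NRG2 was level at 8.33, 9.66 and 9.22 CPM with siRNA 2, with siRNA 1 and in the control. NRG4 was at 1.21, 0.167 and 0.499 CPM in the same libraries and is uncertain, as other annotated genes overlap 38.1% of its exons. NRG3 and the receptor gene ERBB4 were not listed in all libraries and were not analysed here.

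**Figure D2:**
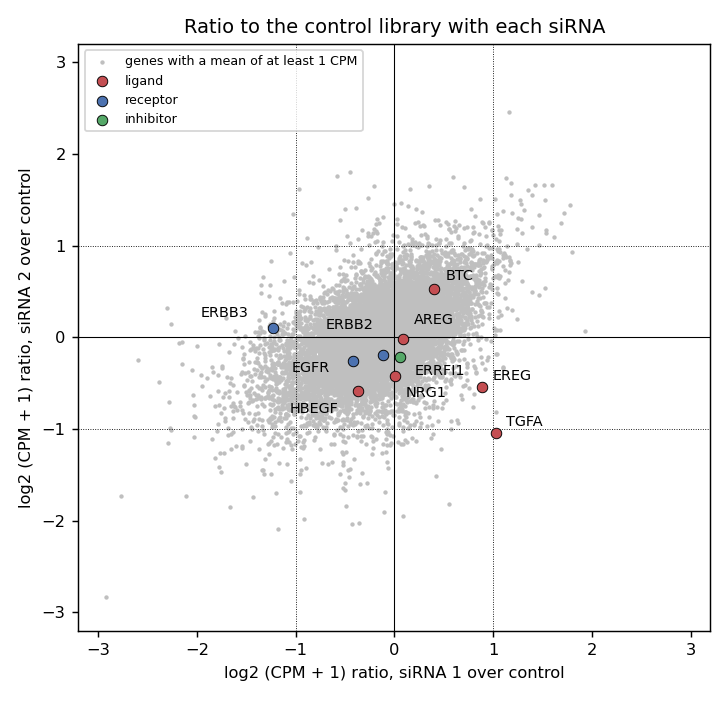
Each point is a gene, with the log2 (CPM + 1) ratio of siRNA 1 to control on the horizontal axis and of siRNA 2 to control on the vertical axis; grey points are the 14185 genes tested and dotted lines mark 2-fold. TGFA (1.03 and −1.04) and EREG (0.89 and −0.54) lie in the lower right and ERBB3 (−1.23 and 0.11) at the left; both axes share the 1 control library.

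The receptors varied less, apart from ERBB3. EGFR, the receptor of most of these ligands, stood at 416.2 CPM with siRNA 2, 371.3 CPM with siRNA 1 and 498.3 CPM in the control. It was lower than the control with both reagents, at 83.5% (81.5 to 85.5) and 74.5% (72.7 to 76.4). ERBB2 was at 110.1 CPM with siRNA 2, 116.0 CPM with siRNA 1 and 125.7 CPM in the control, and 7.41% of its exonic length is shared with MIEN1 and PGAP3 on the opposite strand. Its ratio with siRNA 1 was −0.11 on the log2 scale but 0.20 with the trend on GC content removed, so its direction is not settled.

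ERBB3, the receptor that pairs with ERBB2 and binds NRG1, was low with siRNA 1 alone. Its level was 30.9 CPM with siRNA 2 (921 read pairs), 11.7 CPM with siRNA 1 (349) and 28.7 CPM in the control (862). With siRNA 1 the level was 40.7% (35.8 to 46.1) of the control, a log2 ratio of −1.23. With siRNA 2 the level was 107.9% of the control, with an interval from 98.2 to 118.5 that includes equality. The siRNA 2 level was 265.2% (234.2 to 300.8) of the siRNA 1 level, so ERBB3 differed between the reagents in the direction opposite to TGFA and EREG. The inhibitor ERRFI1 was at 276.5 CPM with siRNA 2, 334.3 CPM with siRNA 1 and 320.7 CPM in the control. Its siRNA 2 level was 86.2% (83.7 to 88.8) and its siRNA 1 level 104.2% (101.4 to 107.2) of the control.

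Counted against all genes, the 9 members above 1 CPM gave few calls. With siRNA 2 over the control, 0 members were at least 2-fold higher, against 1.10% of all genes, and 1 (TGFA) was at least 2-fold lower, against 1.16%. With siRNA 1 over the control, 1 (TGFA) was higher, against 0.677%, and 1 (ERBB3) lower, against 4.21%. For siRNA 2 over siRNA 1, 1 (ERBB3) was higher, against 2.85%, and 2 (TGFA and EREG) lower, against 0.818%. At 1.5-fold, EREG joined TGFA as higher with siRNA 1 (2 of 9, against 4.43% of all genes) and HBEGF joined it as lower with siRNA 2 (2 of 9, against 6.61%). HBEGF passes that line barely, at a log2 ratio of −0.59, and falls short of it at −0.55 with a pseudocount of 5 CPM. BTC with siRNA 2 was at 153.8% (122.7 to 193.4) of the control but falls short of 1.5-fold higher at a log2 ratio of 0.52. With a pseudocount of 0.1 CPM its ratio is 0.61, past that line. The other 1.5-fold counts were those at 2-fold, and the shares of all genes were 6.34% higher with siRNA 2, 15.1% lower with siRNA 1, and 13.0% higher and 3.74% lower for siRNA 2 over siRNA 1. TGFA is in these counts by choice. The siRNA 2 and siRNA 1 comparisons also share the control library.

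Median ratios of the 9 members were −0.21 for siRNA 2 over control, 0.06 for siRNA 1 over control and −0.10 for siRNA 2 over siRNA 1. Over all 14185 genes they were 0.01, −0.10 and 0.11. Median-of-ratios scaling moves the siRNA 1 median of all genes to 0.01, a shift to set beside each siRNA 1 ratio given here. It also changes the split of 2-fold calls for siRNA 1 over control, which had 96 higher and 597 lower genes, to 153 and 432, and removal of the GC trend to 136 and 284. For siRNA 2 over siRNA 1 it changes 404 higher and 116 lower genes to 279 and 174, and removal of the GC trend to 236 and 184. EREG with siRNA 1 reaches a log2 ratio of 1.00 under it. When both siRNA libraries were set against the control as 1 group, limma called 0 of 14185 genes (0%) at an adjusted p under 0.05, while 691 had p under 0.05 before adjustment. The quasi-likelihood test of edgeR and DESeq2, both run on read pairs, used the same grouping. It averages the siRNAs, so ratios on opposite sides of the control, as for TGFA and EREG, cancel. No result of these tests is read for a member.

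Levels of different genes were compared per kilobase of exon, using the exonic length of GENCODE release 29. That length merges the exons of all annotated transcripts of a gene, for example 12521 bases for EGFR, 10321 for ERBB2 and 1648 for AREG. It can exceed the length of any single message, which places such a gene lower. The order between genes and the sums below depend on this choice, which the counting intervals do not cover. On this scale ERRFI1 was the highest member in every library (66.1, 79.9 and 76.6 CPM per kb with siRNA 2, with siRNA 1 and in the control), followed by AREG (47.2, 50.6 and 47.6). EGFR came next with siRNA 2 (33.2) and in the control (39.8), while TGFA (38.9) and EREG (33.4) stood above EGFR (29.7) with siRNA 1. With siRNA 2, TGFA (9.10) stood below HBEGF (15.6), EREG (12.3) and ERBB2 (10.7). ERBB3, BTC and NRG1 were the lowest members in all libraries. In the control, TGFA (18.997) and EREG (17.98) were neighbours in the order whose counting intervals overlapped.

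The ligand transcripts summed to 86.6 CPM per kb with siRNA 2, 143.4 with siRNA 1 and 109.8 in the control. AREG made up the largest share in each library, at 54.5% with siRNA 2, 35.3% with siRNA 1 and 43.4% in the control. TGFA made up 10.5%, 27.1% and 17.3% in the same libraries, and EREG 14.2%, 23.3% and 16.4%. The 3 receptors summed to 47.3 CPM per kb with siRNA 2, 42.2 with siRNA 1 and 55.1 in the control, of which EGFR was 70.2%, 70.3% and 72.2%. The ligand sum thus lay below the control with siRNA 2 and above it with siRNA 1, while the receptor sum lay below it with both.

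**Figure D3:**
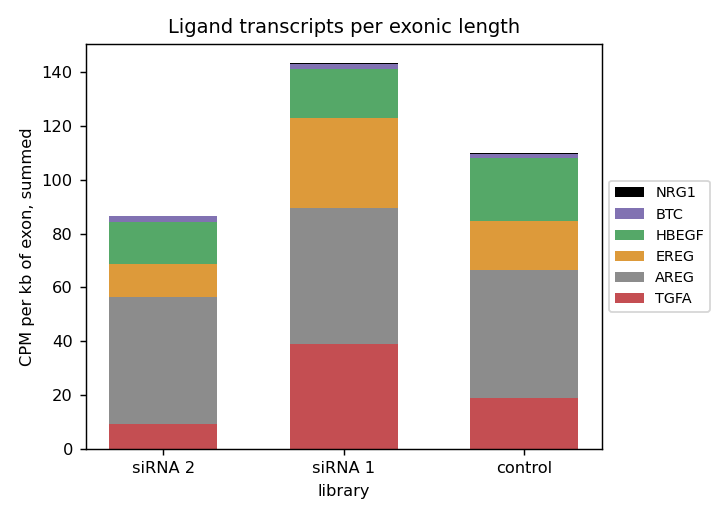
Stacked bars give the summed level of the 6 ligand genes in CPM per kb of exon for the siRNA 2, siRNA 1 and control libraries, 1 library each. The totals are 86.6, 143.4 and 109.8, and the TGFA and EREG blocks differ most between libraries while the AREG block is near 50 in all.

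Sequence features of the 3′ ends were then set beside the levels. Heptamers that occur in no fewer than 100 of the 12176 tested genes with an annotated 3′ UTR were ranked by how far, in units of its standard error, the genes holding them lay below other genes in 1 library relative to the mean of the other libraries, with the trend on UTR length and GC content removed. Of 15741 heptamers, TGGGTCA and GGGTCAA ranked highest for the siRNA 2 library, and TTCACCA and TCACCAA for the siRNA 1 library. All 4 also occur in annotated TSPAN18 transcripts (each in 8 of 13), searched at full length. The heptamers of each pair overlap in sequence, and no share over full-length transcripts of other genes was computed. The sequences of the siRNAs themselves were not used here, so a match to them was not tested. The heptamers were found from these libraries, so what follows describes the members and tests nothing.

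A siRNA 2 heptamer was present in TGFA and EREG and in no other member, while 12.8% of the 12176 genes hold one. These sites are shown because they mark the pair of members with the lowest log2 ratios of siRNA 2 over siRNA 1. The site in the 3′ UTR of TSPAN18, which holds TGGGTCA alone, is given for comparison. Each line runs 5′ to 3′ in the transcript, with the match in capitals.
TGFA: tcgagggcacaTGGGTCAccagttgcttt
EREG: aatatttatgtTGGGTCAAgtgttaggtca
TSPAN18: tccttcccccaTGGGTCAtatgttgaaag
The TGFA match begins at base 2935 of a 3579-base 3′ UTR, and the EREG match at base 83 of 3943, where the heptamers overlap in 1 run. Both heptamers together occur in 2.76% of the 3′ UTRs. These shares are over 3′ UTRs with a median of 1136.5 bases and are not matched for length. A longer 3′ UTR, as in TGFA and EREG, has more room for a match.

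A siRNA 1 heptamer was present in EREG, HBEGF, EGFR and NRG1, while 20.9% of the 12176 genes hold one. ERBB3, the member that was low with siRNA 1 alone, holds none, and EREG, which was high with siRNA 1, holds one. The HBEGF match and the longer of 2 EGFR matches are shown because both genes were below the control with siRNA 1, at 77.2% and 74.5%.
HBEGF: tcccacccaccTCACCAAaacgatgaagt
EGFR: actttggttagTTCACCAAcagtcttacca
Both genes lack the siRNA 2 heptamers, and with siRNA 2 HBEGF was at 66.2% and EGFR at 83.5% of the control. Whether these sites lower any member was not tested.

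Across all genes, the 1559 with a siRNA 2 heptamer had a median log2 ratio of −0.14 for siRNA 2 over control, against 0.02 for the 10617 without one. Of them, 4.23% were at least 2-fold lower, against 0.895% of the genes without. The heptamers were picked for low levels in this same library, so these differences, and the plot of them, restate that choice. For siRNA 1 over control the medians of the same sets were −0.09 and −0.11, and 5.64% and 4.48% were at least 2-fold lower. For the siRNA 1 heptamers, chosen in the same way from the siRNA 1 library, the medians of siRNA 1 over control were −0.15 with and −0.09 without one, and 7.44% and 3.89% were at least 2-fold lower.  Whether the sites lower TGFA or EREG was not tested.

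**Figure D4:**
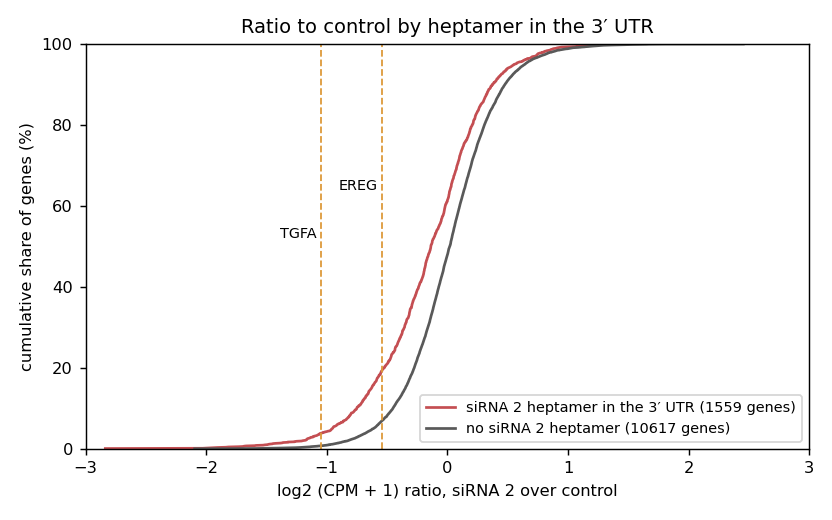
Cumulative share of genes, in percent, by log2 (CPM + 1) ratio of siRNA 2 to control, for 1559 genes with and 10617 genes without a siRNA 2 heptamer in the 3′ UTR; dashed lines mark TGFA (−1.04) and EREG (−0.54). The curve of genes with the heptamer lies to the left, with medians of −0.14 and 0.02.

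Ligand messages are also known to carry AU-rich elements, which shorten the life of many growth factor messages. The pentamer ATTTA occurred 13 times in the 3′ UTR of TGFA, 20 times in EREG, 12 times in BTC and 4 times in the 269 bases of AREG. Per kilobase this is 3.63 for TGFA, 5.07 for EREG, 6.26 for BTC and 14.9 for AREG, against a median of 1.62 over the 3′ UTRs of the 12176 genes. As many or more per kilobase were held by 19.4%, 8.84%, 4.97% and 0.370% of the 3′ UTRs. HBEGF (3.43), NRG1 (3.37) and the inhibitor ERRFI1 (3.35) were close to TGFA. ERBB2 held none, and EGFR (1.497) and ERBB3 (1.38) were near the median. The nonamer TTATTTATT was in TGFA and EREG and in no other member, against 8.75% of all 3′ UTRs. That share is not matched for length, and a longer 3′ UTR has more room for a match. The 3′ UTRs of TGFA (3579 bases) and EREG (3943) exceed the median of 1136.5 bases. Those of EGFR (6011) and NRG1 (3557), which lack the nonamer, do so too. These stretches are shown because, like the siRNA 2 heptamer, they mark the same pair of ligands.
TGFA: agatgatgtcTTATTTATTagatggataa
EREG: ttattaatttTTATTTATTtttcttggga
Their part in the levels was not tested.

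Promoters of 8 of the 10 members were available from RefSeq (GRCh38.p14), as 250 bases before to 50 after the annotated start. Those of TGFA and EREG, which varied alike, and of AREG, which did not, are shown 5′ to 3′ on the strand of the gene. Capitals mark matches, on either strand, to the TATA box TATAAA, the CCAAT box CCAAT, the GC box GGGCGG, the AP-1 element TGACTCA, the cAMP response element TGACGTCA or the E-box CACGTG. The TGFA window is the upstream one of 2 listed and lies at chr2:70553777-70554076 on the minus strand. The EREG window is chr4:74364895-74365194 and the AREG window chr4:74444886-74445185, both on the plus strand.
TGFA: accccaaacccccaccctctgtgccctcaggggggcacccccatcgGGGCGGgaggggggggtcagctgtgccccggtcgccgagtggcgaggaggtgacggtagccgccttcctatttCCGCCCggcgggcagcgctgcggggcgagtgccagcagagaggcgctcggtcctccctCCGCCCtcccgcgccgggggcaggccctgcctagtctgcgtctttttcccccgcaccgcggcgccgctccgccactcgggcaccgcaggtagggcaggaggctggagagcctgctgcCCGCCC
EREG: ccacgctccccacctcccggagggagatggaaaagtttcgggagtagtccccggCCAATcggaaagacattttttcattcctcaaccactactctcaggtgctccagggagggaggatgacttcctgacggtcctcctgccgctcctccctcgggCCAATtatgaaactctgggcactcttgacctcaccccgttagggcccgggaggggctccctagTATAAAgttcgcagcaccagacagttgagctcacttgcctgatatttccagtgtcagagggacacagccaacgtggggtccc
AREG: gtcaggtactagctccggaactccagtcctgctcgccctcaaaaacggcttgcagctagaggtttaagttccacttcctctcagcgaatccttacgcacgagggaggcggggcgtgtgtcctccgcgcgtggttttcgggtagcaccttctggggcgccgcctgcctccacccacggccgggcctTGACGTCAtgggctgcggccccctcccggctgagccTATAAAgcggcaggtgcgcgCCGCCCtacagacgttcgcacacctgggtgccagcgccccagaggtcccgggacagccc
The TGFA window held 4 GC boxes and no TATA box. EREG held a TATA box that begins 32 bases before the start and 2 CCAAT boxes, and AREG a TATA box that begins 29 bases before the start, a cAMP response element at 65 bases before it and a GC box. Of 35116 promoter windows, 11.5% held the TATA box, 34.6% the CCAAT box, 45.0% the GC box, 4.95% the AP-1 element, 1.85% the cAMP response element and 7.26% the E-box. TGFA and EREG thus shared none of these motifs in these windows.

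Genes outside the family with a pattern most like TGFA were found by Euclidean distance between pairs of log2 ratios, siRNA 2 over control and siRNA 1 over control, over the 3 libraries and 10838 genes whose mean reached 5 CPM, clone-named loci left out. The nearest was TGFB2, a ligand of the TGF-beta family, at 8.26 CPM with siRNA 2, 32.2 CPM with siRNA 1 and 15.2 CPM in the control (distance 0.235). Other annotated genes overlap 26.6% of its exons, so it is uncertain. Next came ICK, a protein kinase, and LPAR1, a receptor for lysophosphatidic acid (8.26, 26.7 and 16.7 CPM in the same libraries). SNX8, KIF26B and UHMK1 followed, then IGFBP4, which binds insulin-like growth factors (78.5, 212.7 and 121.4 CPM), and THBS1, a secreted matrix glycoprotein (63.3, 163.4 and 101.2 CPM). A siRNA 2 heptamer was annotated in 2 of these 8 genes, UHMK1 and IGFBP4, beside 12.8% of the 12176 genes with an annotated 3′ UTR. All 8 were chosen for their values.

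The other genes of the pathway were listed by role, the ligands EGF and NRG2 included, and 82 of 88 passed 1 CPM. For siRNA 2 over siRNA 1, 14 of them were at least 1.5-fold higher and 5 lower, 3 at least 2-fold higher and 0 lower, with a median of 0.04 against 0.11 over all genes. The shares of all genes in that comparison are 13.0% and 3.74% at 1.5-fold and 2.85% and 0.818% at 2-fold. For siRNA 2 over control, 3 were at least 1.5-fold higher and 11 lower, and for siRNA 1 over control 3 and 14. The shares of all genes at 1.5-fold are 6.34% higher and 6.61% lower with siRNA 2, and 4.43% and 15.1% with siRNA 1. None of these list counts has a test.

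Among 10 genes that carry ligands to the surface and cut them, 2 reached 1.5-fold in favour of siRNA 2 over siRNA 1 and 0 the reverse, beside 13.0% and 3.74% of all genes. NKD2, which escorts TGFA to the basolateral membrane, was at 22.2 CPM with siRNA 2, 10.9 CPM with siRNA 1 and 23.2 CPM in the control. RHBDF2, a partner that the shedding protease ADAM17 needs, was at 72.9, 45.3 and 86.8 CPM in the same libraries. Both were at least 1.5-fold lower with siRNA 1 than in the control, as were 15.1% of all genes. Of the 10 genes, 4 lay above the control with siRNA 1 and 6 below it. ADAM17 itself was at 124.5 CPM with siRNA 2, 111.9 CPM with siRNA 1 and 88.8 CPM in the control, with 13.6% of its exons overlapped by other genes. GORASP2, a Golgi stacking protein, was at 124.9, 94.5 and 119.8 CPM.

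Among 18 genes of receptor turnover and restraint, siRNA 2 was at least 1.5-fold above siRNA 1 for 2 and below it for 2, beside the same shares of all genes. STAMBP, a deubiquitinase of endosomes, was at 80.1 CPM with siRNA 2, 35.6 CPM with siRNA 1 and 69.9 CPM in the control. ERBIN, a scaffold that binds ERBB2, was at 224.1, 397.7 and 192.0 CPM, high with siRNA 1. CBLB, a ubiquitin ligase of activated receptors, was at 10.6, 5.75 and 10.8 CPM. Among 14 receptor-proximal adaptors, 5 were higher and 2 lower by that measure. SOS1, the exchange factor that loads RAS, was at 91.2 CPM with siRNA 2, 49.5 CPM with siRNA 1 and 84.4 CPM in the control, and the docking protein GAB2 at 13.2, 6.49 and 10.5 CPM. CRK, an adaptor, went the other way at 168.6, 298.8 and 222.9 CPM.

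In the cascades below, siRNA 2 was at least 1.5-fold above siRNA 1 for 2 of 11 RAS-ERK genes and 2 of 9 PI3K-AKT genes, and below it for 0, beside 13.0% and 3.74% of all genes. The kinases ARAF (64.9, 35.3 and 69.7 CPM with siRNA 2, with siRNA 1 and in the control) and BRAF (70.4, 42.4 and 48.4 CPM) were the first pair. HRAS, a RAS protein, was at 16.6, 24.6 and 33.2 CPM. PIK3CD, a catalytic subunit of PI3K, was at 19.5, 7.86 and 14.4 CPM. PIK3CA was at 51.4, 35.1 and 43.9 CPM and is uncertain, as other genes overlap 35.8% of its exons.

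Of 18 transcripts that depend on ERK, 0 were at least 1.5-fold higher and 1 lower for siRNA 2 over siRNA 1, beside 13.0% and 3.74% of all genes. Their median ratio was −0.13, against 0.11 for all genes. For siRNA 2 over control 5 of 18 were at least 1.5-fold lower and 0 higher, beside 6.61% and 6.34% of all genes. For siRNA 1 over control 3 were lower and 0 higher, beside 15.1% and 4.43%. EGR1, an early response transcription factor, was the list's 1 gene past 2-fold against the control, at 7.96 CPM with siRNA 2, 6.32 CPM with siRNA 1 and 23.8 CPM in the control. The 1 lower gene was PHLDA1, an early response gene, at 166.6 CPM with siRNA 2, 254.7 CPM with siRNA 1 and 245.6 CPM in the control. DUSP5, a phosphatase that acts on ERK, was at 83.6, 125.7 and 122.3 CPM. JUNB, a subunit of AP-1, went the other way at 62.8, 41.7 and 77.4 CPM. Other genes overlap 16.5% of the exons of PHLDA1 and 14.2% of those of JUNB.

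**Figure D5:**
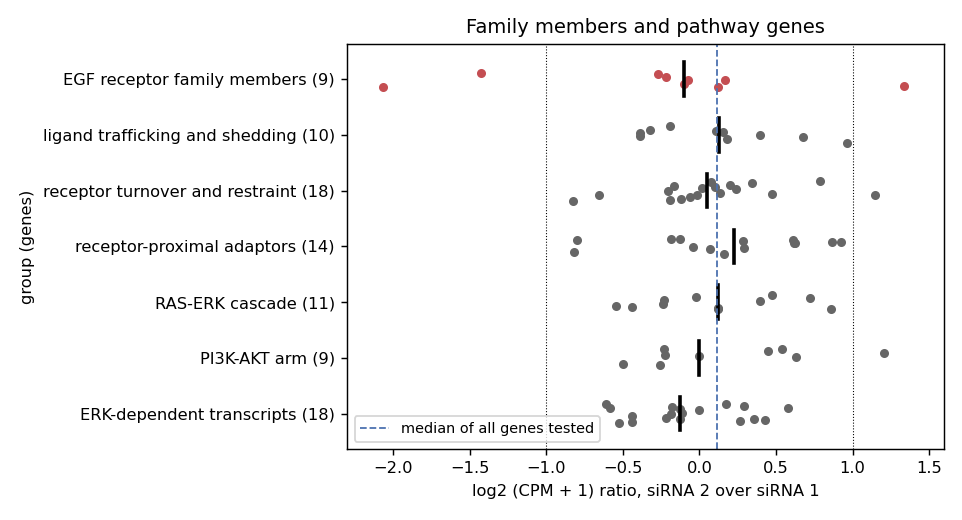
Log2 (CPM + 1) ratio of siRNA 2 to siRNA 1 for the 9 family members above 1 CPM and for pathway genes grouped by role; each point is a gene, thick bars are group medians, the dashed line is the median of all genes tested (0.11) and dotted lines mark 2-fold. TGFA (−2.07) and EREG (−1.43) lie left of every listed pathway gene, and ERBB3 (1.33) lies right of them.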

How the data were processed

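The submitters' processing notes name the hg19 build, HTSeq 0.6.1, HISAT2 2.1.0 and bcl2fastq 2.19.1, without roles. Not given in the sources used here: annotation release, strand setting of the counting, and sequences of the siRNAs. Each table deposited by the authors holds 1 value per gene in CPM, summing to 999863, 999861 and 999868 for siRNA 2, siRNA 1 and control. All values (100% within 0.001 read) were whole multiples of 1 read, and above 1 read all were even, so read pairs were recovered and a listed value of 1 read was taken as 0 pairs.

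Ratios are log2 (CPM + 1). Genes averaging 1 CPM or more were tested. Level intervals are exact Poisson and ratio intervals exact binomial (Clopper-Pearson), at 95%. A count of 0 allows up to 3 pairs, 0.101, 0.100 and 0.0998 CPM in the siRNA 2, siRNA 1 and control libraries. Limma 3.58.1 (R 4.3.3, Benjamini-Hochberg, threshold 0.05) compared both siRNA libraries with the control over all genes. The count tests edgeR 4.0.16 and DESeq2 1.42.0 used read pairs. The limma step and the heptamer ranking were tested on simulated data. Members, lists and tests were chosen with earlier results of these data known. Named genes are the members, the 3 genes of each list farthest apart between the siRNAs, the 8 nearest to TGFA and TSPAN18; ADAM17, EPGN, NRG4 and EGR1 were named after their values were seen, and some items that the rule or the marker lists name are not reported here. Promoters are from RefSeq; transcripts, lengths and 3′ UTRs are from GENCODE release 29 on GRCh38, used without coordinates since it is not the authors' build. Figures used matplotlib 3.10.9, and other steps statsmodels 0.14.6, scipy 1.17.1, pandas 2.3.3 and numpy 2.4.6 under Python 3.11.15.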

Additional observations from a re-analysis of the deposited data

Results flagged for a closer look

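Members stood on opposite sides of the control with the siRNAs, with both counting intervals clear of it, in 3 cases; the differences rest on 1 library per reagent and were not tested. TGFA had log2 ratios of −1.04 with siRNA 2 and 1.03 with siRNA 1. EREG had −0.54 with siRNA 2 and 0.89 with siRNA 1. ERRFI1 had −0.21 with siRNA 2 and 0.060 with siRNA 1, the smallest values of the 3 genes. The medians of all genes were 0.01 with siRNA 2 and −0.10 with siRNA 1.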

How the results depend on the processing

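Of 117 recomputed member ratios 116 kept their sign; the exception is ERBB2 with siRNA 1. Median-of-ratios scaling put TGFA at 1.14 (siRNA 1 over control) and −2.20 (siRNA 2 over siRNA 1), removal of the GC trend at 1.20 and −2.21, and a pseudocount of 5 CPM put the second at −1.98. The cause was not tested. Members at least 2-fold higher with siRNA 1 numbered 2 under median-of-ratios scaling and 0 with the larger pseudocount, and those lower with siRNA 2 numbered 0 with that pseudocount and 0 with the GC trend removed, as TGFA is close to the line. Over all genes, with a pseudocount of 0.1 CPM, 274 were at least 2-fold higher and 298 lower with siRNA 2, 163 and 972 with siRNA 1, and 807 higher for siRNA 2 over siRNA 1. With 5 CPM, which shrinks the ratios of low genes, they were 59 and 66, 50 and 178, and 114 and 71. Median-of-ratios scaling gave 153 higher with siRNA 1. Removal of the GC trend gave 284 lower with siRNA 1, and 236 higher and 184 lower for siRNA 2 over siRNA 1. Limma called 1 gene with median-of-ratios scaling, and DESeq2 called 13. Leaving out a siRNA library gives no test, since 1 library against 1 has no residual degree of freedom. No paired analysis was possible because each condition has 1 library. Depth limits NRG1 and BTC most.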
